A study of Mus musculus with 48 samples.

Results

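The comparison described here sets the colon of HH mice against the colon of LH mice. Both groups ate diet H after weaning, and they differed in the diet of the dam, which was diet H for HH and diet L for LH. The diet therefore changed at weaning in LH and not in HH. The members were chosen by the array titles, which name colon RNA and the diet, and they number 12 arrays, 6 HH and 6 LH, of 48 arrays in the series. In diet H the selenium content was 0.44 mg/kg and the folate content 2.4 mg/kg. In diet L selenium stood at 0.08 mg/kg, with folate at 0.4 mg/kg. Both were high-fat diets given to C57/BL6 mice, the dams eating theirs from before mating through gestation and lactation and the offspring, described as male, eating diet H until 12 weeks of age. The other colon groups, HL and LL with 6 arrays each, shared these dam diets but ate diet L after weaning, and they entered the fit and serve below as a second comparison of dam diets. Whole colon was extracted, so epithelium, muscle, nerve, immune cells and attached fat were measured together. The dam of each mouse was not given in the sources used here, so mice of 1 group may have shared a litter and the p-values measure the spread between these mice.

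Selenium is built into selenoproteins as the amino acid selenocysteine, and several of these proteins, the glutathione peroxidases and thioredoxin reductases, remove peroxides and reduce other proteins. Folate carries the carbon units used to make thymidylate and purines, the building blocks of DNA, and feeds the methionine cycle that supplies methyl groups. The colon lining is renewed throughout life from dividing cells at the base of the crypts, whose daughters move up and mature into absorptive colonocytes, goblet cells and hormone-secreting enteroendocrine cells. Dividing cells make the proteins of DNA replication in S phase and those of the spindle and chromosome segregation in G2 and M phase, and they switch off both sets of genes when they mature.

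Every array held Cy3-labelled RNA of 1 mouse beside Cy5-labelled reference RNA, and every value below is a log2 ratio of mouse over reference (called the level) or, where said, a log2 difference of LH minus HH. Each of the slides numbered 7 to 12 carried 1 array of every group, so the difference between LH and HH could be taken within a slide. Spots well above background in Cy3 made up 67.6 to 73.7% of those on the HH arrays and 66.8 to 73.0% on the LH arrays. Colon markers were higher on the colon arrays than on the liver arrays, and liver markers were lower. All 13 measured liver markers were still well above background on at least 6 of the 12 HH and LH arrays. *Muc2*, the main mucin of the gut, lay between 0.99 and 1.66 on the colon arrays against at most -2.60 on the liver arrays, whereas albumin (*Alb*) lay at or below -3.75 on the colon arrays and at or above 0.20 on the liver arrays. Single mice stood apart in a few genes. *Xist*, the RNA that coats the silenced X chromosome in female cells, had a level of 0.69 in HH replicate 1 and 1.37 in HH replicate 5, together with Y-linked *Eif2s3y* at -0.60 and -1.49, whereas in the other HH and LH mice *Xist* was at or below -3.20. In LH replicate 2 the fat-cell hormone *Adipoq* was at -1.47, against 1.77 or more in the other 11 mice. All of these mice were kept, and values without them are given where they move a count.

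No probe was called. At a change of more than 1.5-fold and a Benjamini-Hochberg adjusted p (limma) under 0.05, 0 of 41173 probes (0%) differed between HH and LH, and the lowest adjusted p was 0.239. At an unadjusted p under 0.05 there were 3326 probes, 8.08% of all, of which 2032 were higher and 1294 lower in LH. Of these, 17 exceeded 1.5-fold. With 1 probe for each of the 18434 named genes, taken as the one with the highest mean signal, 1090 genes (5.91%) were higher in LH and 675 genes (3.66%) were lower at an unadjusted p under 0.05. These 2 shares are the background against which the gene lists are read. Without the slide as a block the count was 1336 of the 41173 probes, a smaller share than the 0.05 expected if no probe differed. With the slide as a random block it was 2769. The correlation between arrays of 1 slide, estimated by limma, was 0.305. In what follows a gene is said to be lower or higher, or to pass, at an unadjusted p under 0.05 only.

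**Figure D1:**
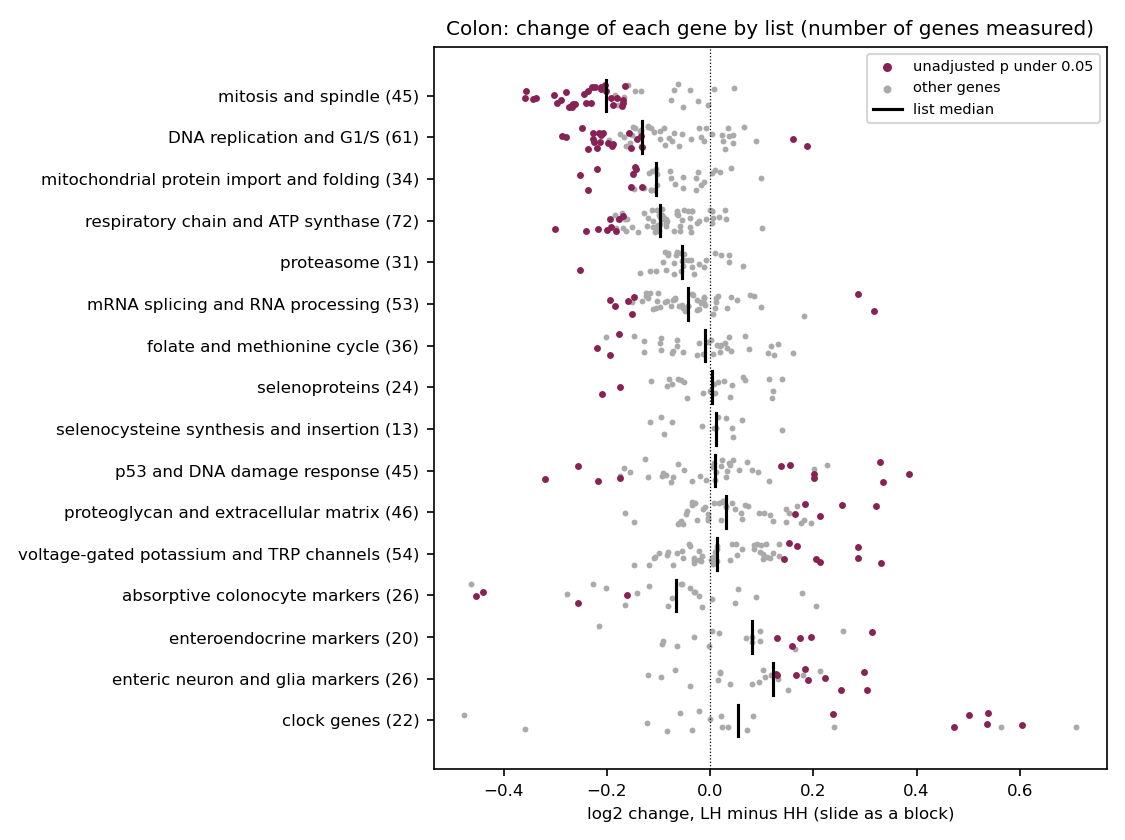
Log2 difference of LH minus HH in colon for every measured gene of 16 lists (x axis), with 1 point per gene, dark points for genes at an unadjusted p under 0.05 and a black bar at the median of the list. The mitosis and DNA replication lists lie mostly left of 0, with medians of -0.20 and -0.13, whereas the enteric neuron list lies mostly right of 0 with a median of 0.12.

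The genes with the lowest p were mostly higher in LH, and these were picked after their values were seen. *Lrch1*, a leucine-rich repeat protein of the cell cortex, ranged from -0.34 over a median of -0.15 to -0.00 in HH and from -0.12 over 0.10 to 0.38 in LH. It was higher in LH on all 6 slides by 0.28 ± 0.05 (SE) with a limma adjusted p of 0.239, although the ranges of the groups overlapped. *Esm1*, a proteoglycan secreted by endothelial cells, had HH mice between -1.38 and -0.24 (median -0.78) and LH mice between -0.76 and 0.27 (median -0.02). The difference of 0.57 ± 0.11 (SE; adjusted p = 0.261, limma) was seen on all 6 slides, and only the LH mice of slides 11 and 12, at -0.76 and -0.75, lay among the HH values.

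*Pcdh17*, a protocadherin of neuronal contacts, had levels of 1.45 to 1.81 (median 1.58) in HH and of 1.82 to 2.16 (median 1.98) in LH, so that every LH mouse was above every HH mouse. The same held for *Aldh1a3*, which makes retinoic acid, with 0.55 to 1.10 (median 1.05) in HH and 1.21 to 1.57 (median 1.37) in LH. Their differences were 0.39 ± 0.08 and 0.43 ± 0.09 (SE), each with a limma adjusted p of 0.261. Groups did not overlap in 29 of 18434 genes (0.157%), 20 of them with LH higher, and this share was not tested against chance. *Ppargc1a*, a coactivator that drives the making of mitochondria, was higher in LH on all 6 slides by 0.36 ± 0.07 (SE; adjusted p = 0.261, limma) with the lowest-p probe, and its brighter probe gave 0.17 ± 0.12 (SE) and did not pass. *Hbp1*, a repressor of cell cycle genes, was higher by 0.55 ± 0.11 (SE; adjusted p = 0.284, limma) on the lowest-p probe. Its brighter probe gave 0.19 ± 0.10 (SE) and did not pass.

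Under the rule that took well-measured probes moving more than 1.5-fold in 1 direction on all 6 slides, 3 genes were named. *Sppl2a*, an intramembrane protease of lysosomes that cleaves the invariant chain in B cells and dendritic cells, ranged from -0.77 to 0.11 (median -0.32) in HH and from -1.26 to -0.72 (median -1.0) in LH. Its difference was -0.60 ± 0.12 (SE; adjusted p = 0.261, limma), and its other 3 probes gave -0.37, -0.47 and -0.57, so the probes ran the same way. *Sirpb1b*, a signal-regulatory protein of myeloid cells, was at -0.81 to -0.39 (median -0.48) in HH and at -0.21 to 0.84 (median 0.02) in LH, without overlap, a difference of 0.72 ± 0.21 (SE; adjusted p = 0.411, limma). The third gene was *Lep*, the fat-cell hormone leptin, with 0.60 to 1.78 (median 1.60) in HH and -0.30 to 1.64 (median 0.81) in LH and a difference of -0.76 ± 0.35 (SE; adjusted p = 0.587, limma). It was lower in LH on all 6 slides, as was no other of the 14 adipocyte markers described below.

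**Figure D2:**
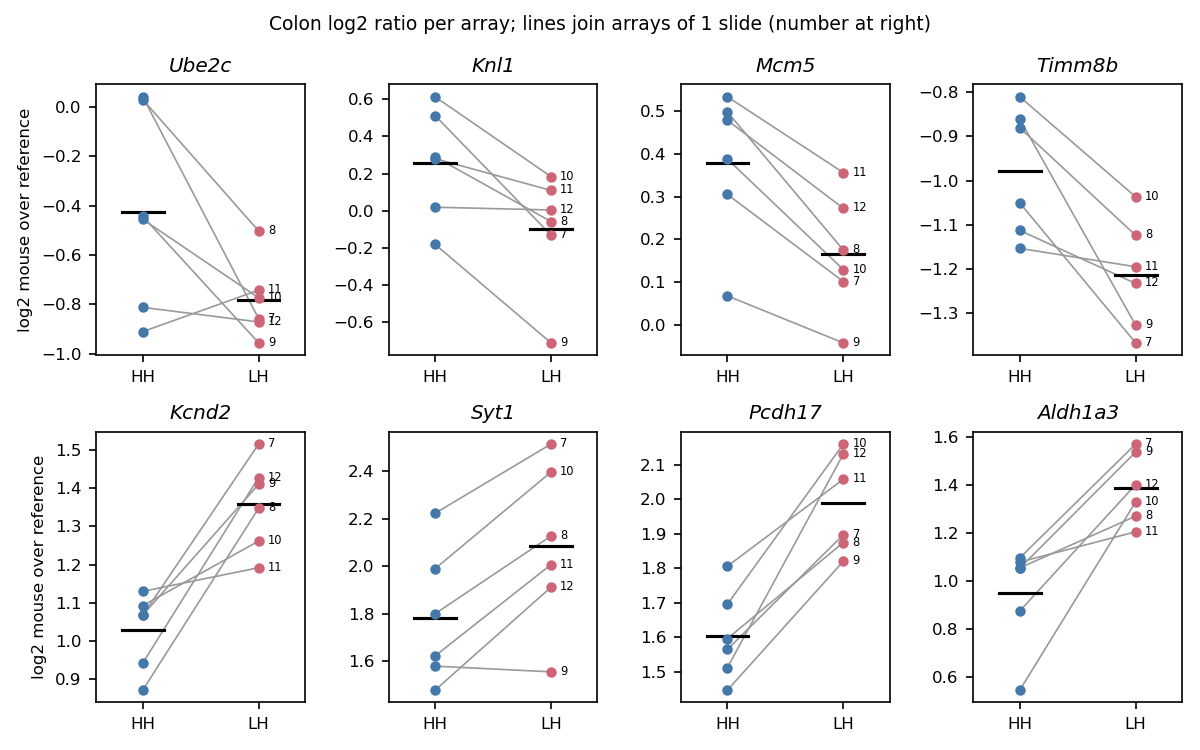
Levels of 8 genes (y axis, log2 mouse over reference) on the 6 HH and 6 LH arrays, with grey lines joining the arrays of 1 slide, the slide number at the right and black bars at the group means. *Kcnd2*, *Pcdh17* and *Aldh1a3* show no overlap between the groups, and in *Ube2c* the HH values of slides 11 and 12 lie among the LH values.

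Genes of mitosis were lower in LH more often than those of any other list measured here. Of 45 measured genes of the mitosis and spindle list, 30 (66.7%) were lower in LH at an unadjusted p under 0.05 and none was higher, against 3.66% of all named genes lower and 5.91% higher. Of the 45 genes, 43 had a negative difference, the median was -0.20 against 0.01 over all named genes, and the lowest adjusted p was 0.398 (limma). The list and the expectation of a cell cycle change came from earlier results on these mice, so its direction is no independent evidence. In bulk tissue, fewer dividing cells and less of these messages in each dividing cell cannot be told apart.

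Several of these genes share a short promoter element. The cell cycle genes homology region, TTTGAA, and the CCAAT box, bound by NF-Y, are known for switching such genes on in G2 and off in resting cells. The promoter windows below, from RefSeq on GRCm38.p6 and reaching from 250 bases before to 50 after the start of transcription, belong to the 3 mitosis genes with the lowest p and to *Cdk1*, and capitals mark TTTGAA on either strand.
Ube2c: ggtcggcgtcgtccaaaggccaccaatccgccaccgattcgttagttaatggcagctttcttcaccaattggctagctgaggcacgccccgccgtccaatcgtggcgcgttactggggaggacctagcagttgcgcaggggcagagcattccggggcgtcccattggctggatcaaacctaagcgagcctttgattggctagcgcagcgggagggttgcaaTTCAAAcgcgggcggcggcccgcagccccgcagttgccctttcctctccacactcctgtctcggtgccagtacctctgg
Knl1: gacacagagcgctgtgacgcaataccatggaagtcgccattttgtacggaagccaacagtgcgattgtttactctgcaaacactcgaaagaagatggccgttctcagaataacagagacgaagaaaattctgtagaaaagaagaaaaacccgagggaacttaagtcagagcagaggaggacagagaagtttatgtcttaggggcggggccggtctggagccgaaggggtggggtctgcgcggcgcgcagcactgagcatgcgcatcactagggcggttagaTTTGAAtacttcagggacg
Bub1b: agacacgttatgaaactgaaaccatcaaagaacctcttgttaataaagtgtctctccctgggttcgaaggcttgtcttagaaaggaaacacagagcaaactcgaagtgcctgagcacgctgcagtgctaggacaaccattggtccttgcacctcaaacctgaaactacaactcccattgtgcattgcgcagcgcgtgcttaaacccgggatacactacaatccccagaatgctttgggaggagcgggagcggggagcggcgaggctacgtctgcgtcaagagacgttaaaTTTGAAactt
Cdk1: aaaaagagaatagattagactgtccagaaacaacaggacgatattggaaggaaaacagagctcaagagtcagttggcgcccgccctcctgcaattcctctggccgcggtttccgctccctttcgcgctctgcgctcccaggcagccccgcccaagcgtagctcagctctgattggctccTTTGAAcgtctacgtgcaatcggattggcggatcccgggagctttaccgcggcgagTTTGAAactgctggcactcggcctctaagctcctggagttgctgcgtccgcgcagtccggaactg
The *Ube2c* window lies at chr2:164769679-164769978 on the plus strand and holds the element once, on the opposite strand, 29 bases before the start. Those of *Knl1* (chr2:119046869-119047168) and *Bub1b* (chr2:118597961-118598260), both on the plus strand, hold it 32 and 41 bases into the transcript. The *Cdk1* window (chr10:69352863-69353162, minus strand) holds it at 71 and 15 bases before the start. Of 45 mitosis genes, 37 had a window, and TTTGAA was found in 26 of these (70.3%) against 20.2% of 27025 genes with a window. CCAAT was found in 27 of 37 (73.0%) against 41.1%, and a CCAAT box can share only an end letter with TTTGAA. A match describes the letters of the window and not binding in these mice.

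*Ube2c*, the ubiquitin-conjugating enzyme that works with the anaphase-promoting complex, ranged from -0.91 to 0.04 (median -0.45) in HH and from -0.96 to -0.50 (median -0.82) in LH. It was lower in LH by 0.36 on average (-0.36 ± 0.10, SE; adjusted p = 0.398, limma) on 5 of 6 slides, and the groups overlapped because HH replicates 5 and 6 were as low as the LH mice. *Knl1*, the scaffold of the outer kinetochore, lay between -0.18 and 0.61 (median 0.29) in HH and between -0.71 and 0.18 (median -0.03) in LH, and was lower on all 6 slides (-0.36 ± 0.10, SE). *Bub1b*, the checkpoint kinase-like protein BubR1 that holds back anaphase, lay between -0.42 and 0.00 (median -0.13) in HH and between -0.88 and -0.16 (median -0.41) in LH, and was also lower on every slide.

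*Cdk1*, the kinase that starts mitosis, was at -0.53 to -0.02 (median -0.24) in HH and at -1.03 to -0.25 (median -0.64) in LH, lower on all 6 slides. Its partners followed it, *Ccna2* with a difference of -0.34 ± 0.11 and *Ccnb1* with -0.30 ± 0.10 (SE), as did the polo kinase *Plk1* (-0.26 ± 0.08), the midzone motor *Kif23* (-0.23 ± 0.08), topoisomerase *Top2a* (-0.27 ± 0.10) and survivin *Birc5* (-0.28 ± 0.11). *Mki67*, the proliferation antigen Ki-67, was an exception in size, with -0.95 to 0.28 (median -0.14) in HH, -0.59 to -0.06 (median -0.48) in LH and an unadjusted p of 0.289 in the limma fit. *Fzr1*, which keeps the anaphase-promoting complex active in G1, had a difference of -0.08 that did not pass either.

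The mitosis difference was uneven over the slides. The median over the 45 genes was -0.46, -0.27, -0.32 and -0.23 on slides 7 to 10, 0.08 on slide 11 and -0.02 on slide 12, and 6 genes were lower on all 6 slides. The mean level of the list ran from -0.40 to -0.05 (median -0.29) in HH and from -0.61 to -0.31 (median -0.41) in LH, so the groups overlapped. In HL and LL it ran from -0.61 to -0.26 (median -0.52) and from -0.63 to -0.16 (median -0.42). The count of 30 was 8 without the slide as a block, 12 without HH replicates 1 and 5, the mice with *Xist* beside Y-linked genes, and 16, 18 and 19 without HH replicate 1, HH replicate 2 and LH replicate 3. The median stayed between -0.27 and -0.15 under all alternatives.

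**Figure D3:**
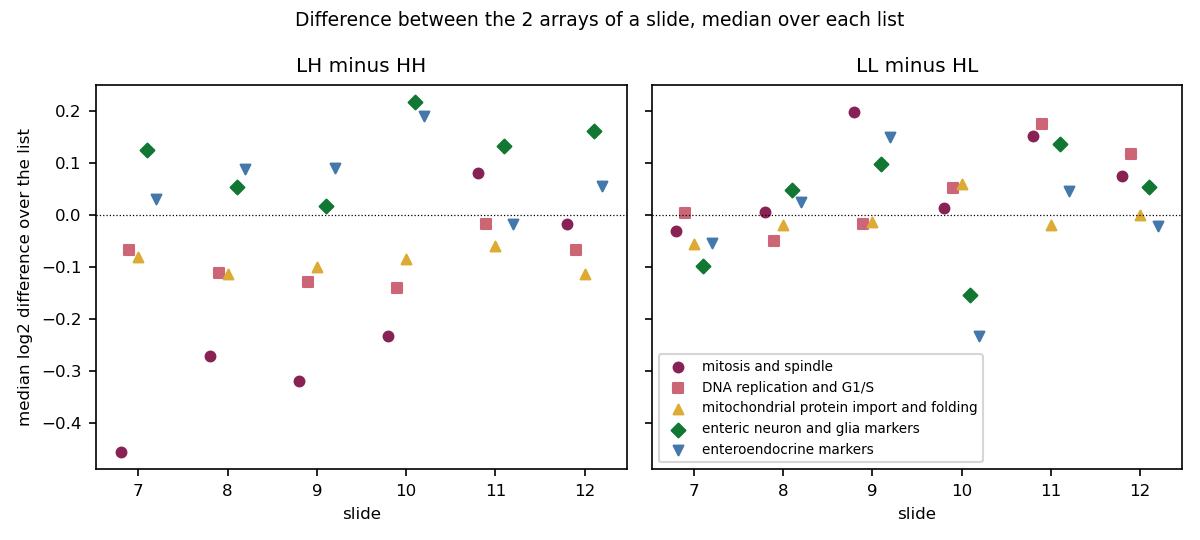
Median log2 difference over each of 5 gene lists (y axis) between the arrays of 1 slide (x axis), for LH minus HH on the left and LL minus HL on the right. The mitosis list is between -0.46 and -0.23 on slides 7 to 10 and at 0.08 and -0.02 on slides 11 and 12, and the mitochondrial import list is below 0 on all 6 slides on the left.

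Genes of DNA replication and of entry into S phase moved in the same direction. Of 61 measured genes, 20 (32.8%) were lower in LH and 2 were higher at an unadjusted p under 0.05, with 49 negative differences, a median of -0.13 and a lowest adjusted p of 0.413 (limma). Of them, 14 were lower on all 6 slides. *Mcm5*, a subunit of the replicative helicase, lay between 0.07 and 0.53 (median 0.43) in HH and between -0.04 and 0.36 (median 0.15) in LH and was lower on every slide (-0.21 ± 0.07, SE; adjusted p = 0.436, limma). *Cdk4*, the kinase that lifts the block on S phase genes, was at -0.02 to 0.48 (median 0.17) in HH and at -0.36 to 0.35 (median -0.02) in LH, again lower on every slide (-0.23 ± 0.07, SE; adjusted p = 0.413, limma).

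*Fen1*, the nuclease that trims Okazaki fragments, was between -0.37 and 0.04 (median -0.10) in HH and between -0.56 and -0.24 (median -0.38) in LH, a difference of -0.25 ± 0.08 (SE; adjusted p = 0.413, limma). *Rrm1*, the large subunit of ribonucleotide reductase, had -0.22 ± 0.07, the helicase cofactor *Cdc45* -0.24 ± 0.08, the kinase adaptor *Cks1b* -0.23 ± 0.08, the transcription factor *E2f2* -0.28 ± 0.10 and the sliding clamp *Pcna* -0.16 ± 0.07 (SE). The 2 members that were higher restrain the cell cycle: *Rb1*, the retinoblastoma protein that holds E2F factors, had 0.19 to 0.38 (median 0.30) in HH and 0.36 to 0.56 (median 0.50) in LH, and *Cdkn1b*, the inhibitor p27, had a difference of 0.16 ± 0.07 (SE). *Cdkn1a*, the inhibitor p21, also stands in this list, and its difference was negative and did not pass. The count of 20 was 3 without the slide as a block and 13 without LH replicate 6.

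The promoter of *Mcm5* is shown because it carries the E2F type of element that marks S phase genes, with capitals for TTTCGCGC or TTTGGCGC on either strand.
Mcm5: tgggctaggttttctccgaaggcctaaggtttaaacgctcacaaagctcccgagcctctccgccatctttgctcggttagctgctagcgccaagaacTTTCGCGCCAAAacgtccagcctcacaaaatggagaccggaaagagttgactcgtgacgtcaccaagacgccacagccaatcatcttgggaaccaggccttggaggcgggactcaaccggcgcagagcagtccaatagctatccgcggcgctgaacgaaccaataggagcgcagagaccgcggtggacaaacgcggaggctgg
This window lies at chr8:75109259-75109558 on the plus strand, and its 2 matches, on opposite strands, overlap each other. These letters were found in 12 of 50 replication genes with a window (24%), in 2 of 37 mitosis genes (5.41%) and in 0.929% of all genes with a window. TTTGAA was found in 11 of the 50 replication genes (22%).

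Mitochondrial genes were lower in LH by smaller amounts. In the list of mitochondrial protein import and folding, 8 of 34 genes (23.5%) were lower and none was higher at an unadjusted p under 0.05, 29 had a negative difference, the median was -0.10 and the lowest adjusted p was 0.396 (limma). The median of the list was below 0 on all 6 slides, from -0.11 to -0.06. *Timm8b*, a small chaperone of the space between the membranes, was at -1.15 to -0.81 (median -0.97) in HH and at -1.37 to -1.04 (median -1.21) in LH, lower on every slide (-0.24 ± 0.06, SE; adjusted p = 0.396, limma). *Hspd1* and *Hspe1*, the chaperonin and co-chaperonin that fold imported proteins and whose genes lie head to head, had differences of -0.22 ± 0.08 and -0.25 ± 0.09 (SE). The count of 8 was 2 without the slide as a block, 5 without HH replicate 4 or LH replicate 6, 13 without HH replicate 5 and 14 without LH replicate 4.

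In the respiratory chain and ATP synthase list, 9 of 72 genes (12.5%) were lower and none was higher, 64 differences were negative and the median was -0.10. By slide the median was -0.17, -0.16, 0.05, -0.02, -0.06 and -0.15 on slides 7 to 12, so slide 9 lay above 0. *Cycs*, cytochrome c, lay between -1.06 and -0.32 (median -0.76) in HH and between -1.36 and -0.41 (median -1.16) in LH (-0.30 ± 0.09, SE; adjusted p = 0.411, limma). *Cyc1*, the cytochrome c1 of complex III, had -0.24 ± 0.07 and *Ndufb6* of complex I had -0.19 ± 0.06 (SE). This count varied widely, with 1 without the slide as a block, 4 without HH replicate 2 or LH replicate 1, 5 without LH replicate 2, 20 without HH replicate 3, 14 without HH replicate 5, and 16 and 18 without LH replicates 3 and 4. The proteasome list had 1 of 31 genes lower (3.23%), close to the background, and a median of -0.05. That gene was *Psma4*, a subunit of the core ring, with -0.70 to 0.07 (median -0.27) in HH and -0.96 to -0.20 (median -0.58) in LH, lower on every slide.

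Genes of nerve and hormone cells ran the other way. Of 26 enteric neuron and glia markers, 9 (34.6%) were higher in LH at an unadjusted p under 0.05 and none was lower, with 22 positive differences, a median of 0.12 and a positive median on all 6 slides. *Syt1*, the calcium sensor of synaptic vesicles, was between 1.48 and 2.22 (median 1.71) in HH and between 1.55 and 2.52 (median 2.07) in LH (0.30 ± 0.08, SE; adjusted p = 0.396, limma), higher on 5 of 6 slides. *Vip*, the relaxing neuropeptide of the gut wall, was at 2.36 to 3.11 (median 2.78) in HH and 2.90 to 3.48 (median 2.98) in LH, and *Elavl4*, a neuronal RNA-binding protein, at 2.79 to 3.41 (median 3.03) and 3.10 to 3.49 (median 3.26), both higher on all 6 slides with overlapping ranges.

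*Penk*, the precursor of enkephalins and the gene of the list with the highest Cy3 signal, had 0.25 ± 0.10 (SE), the ubiquitin hydrolase *Uchl1* 0.17 ± 0.07 and the vesicle fusion protein *Snap25* 0.19 ± 0.08. The glial genes *Sox10* and *S100b* had differences of 0.10 ± 0.06 and 0.18 ± 0.12 (SE) and did not pass. Smooth muscle, the other main tissue of the gut wall, had a median of 0.02, with 1 of 22 markers lower (*Smtn*, a smooth muscle cytoskeletal protein, -0.19 ± 0.08, SE) and none higher, and *Myl9*, the marker with the highest Cy3 signal, at 0.10 ± 0.08 (SE). The count of 9 neuronal genes was 2 without the slide as a block, 5 without HH replicates 1 and 5 together, and 3, 4, 4, 4 and 5 without HH replicate 6, HH replicate 4, LH replicate 1, LH replicate 4 and LH replicate 6.

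Of 54 voltage-gated potassium and TRP channel genes, 8 (14.8%) were higher in LH and none lower, although the median was 0.01 and 36 of the 54 were well above background on at least 6 of the 12 arrays. *Kcnd2*, a channel of the A-type current in excitable cells, was at 0.87 to 1.13 (median 1.07) in HH and 1.19 to 1.52 (median 1.38) in LH, with no overlap (0.33 ± 0.08, SE; adjusted p = 0.326, limma). *Kcna6*, another voltage-gated channel, had 0.21 ± 0.07 (SE) and was higher on all 6 slides. This count lay between 6 and 9 when any 1 mouse was left out and was 5 without the slide as a block.

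Of 20 enteroendocrine markers, 5 (25.0%) were higher in LH and none lower, with a median of 0.08. *Pyy*, the satiety peptide of the distal gut, lay between 1.45 and 2.04 (median 1.68) in HH and between 1.67 and 2.27 (median 2.08) in LH, and was higher on 5 of 6 slides. The granule proteins *Chgb*, *Chga* and *Scg2* were higher on all 6 slides, by 0.17 ± 0.07, 0.16 ± 0.07 and 0.19 ± 0.07 (SE), and neurons also make them. *Insl5*, a peptide of colonic L cells, had -0.22 and did not pass. The count was 0 without the slide as a block, 2 without HH replicate 2, HH replicate 4 or LH replicate 4, and 3 without LH replicate 1, LH replicate 2 or LH replicate 6.

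Among amino acid and amine transporters, 4 of 31 genes (12.9%) were higher and none lower. *Slc7a8*, a carrier of neutral amino acids at the basal side of the epithelium, was at -2.20 to -1.74 (median -1.94) in HH and -1.94 to -1.41 (median -1.72) in LH, higher on every slide (0.26 ± 0.06, SE; adjusted p = 0.306, limma). *Slc18a1*, the vesicular monoamine carrier of endocrine cells, had 0.24 ± 0.09 (SE). The count of 4 was 1 without the slide as a block, 2 without HH replicate 1, HH replicate 2, LH replicate 2, LH replicate 4 or LH replicate 6 and 7 without LH replicate 3. Of 46 proteoglycan and matrix genes, 5 (10.9%) were higher and none lower, with *Sdc4*, a cell-surface heparan sulfate proteoglycan, at 0.48 to 1.35 (median 0.79) in HH and 0.85 to 1.58 (median 1.07) in LH (0.32 ± 0.09, SE), the sulfotransferase *Chst15* at 0.21 ± 0.07 and *Ust* at 0.18 ± 0.08 (SE). The count of 5 was 2 without the slide as a block or without LH replicate 3, and 3 without HH replicate 3, LH replicate 2 or LH replicate 6.

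Absorptive colonocyte markers were lower in LH for 4 of 26 genes (15.4%) and higher for none, with a median of -0.07. Their median in LL against HL was -0.09, with no gene passing. *Slc26a3*, the chloride and bicarbonate exchanger, lay between -0.83 and 0.23 (median -0.26) in HH and between -1.25 and 0.02 (median -0.85) in LH, a difference of -0.45 ± 0.19 (SE). *Krt20*, a keratin of mature colonocytes, had -0.26 ± 0.12 and the water channel *Aqp4* -0.44 ± 0.18 (SE), the latter with HH replicate 4 at -0.73 and the next HH mouse at -1.84. *Car1*, a carbonic anhydrase and the colonocyte marker with the highest Cy3 signal, had -0.06 ± 0.08 (SE) and did not pass. The count of 4 was 0 without the slide as a block or without HH replicate 4, 1 without LH replicate 1, and 2 without HH replicate 6, LH replicate 3 or LH replicate 6. Of 20 crypt stem cell and Wnt target genes 2 (10.0%) were higher, led by *Znrf3*, a Wnt receptor ligase, at 0.22 ± 0.07 (SE), and *Ascl2*, a stem cell factor, was at -0.00. The 16 goblet cell markers had a median of -0.10, with 13 negative differences and a median below 0 on all 6 slides (-0.16 to -0.03). In LL against HL the median was -0.07, with -0.44 on slide 10 and -0.06 to 0.06 on the other slides. Of these markers 1 was lower in LH at an unadjusted p under 0.05 (*Reg4*, -0.21 ± 0.10, SE), and *Zg16*, a goblet cell lectin, was at -0.00 ± 0.09.

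Differences of immune markers lay mostly above 0. Of 24 myeloid markers 20 had a positive difference with a median of 0.14, from -0.09 on slide 7 to 0.41 on slide 10, and LL against HL gave the same median of 0.14, above 0 on all 6 slides. Of them 3 (12.5%) were higher in LH, namely *Adgre1* (a macrophage surface antigen), *Itgax* (CD11c) and the cytokine *Il1b*, with differences of 0.35 ± 0.11, 0.34 ± 0.11 and 0.39 ± 0.16 (SE), and without LH replicate 1 there were 6. None of 24 T, B and plasma cell markers passed, with 21 positive differences and a median of 0.09. In LL against HL the median was 0.29, with 1.77 on slide 10 and -0.17 to 0.28 on the other slides. *Pdgfrb*, a receptor of pericytes and fibroblasts, was the only 1 of 18 fibroblast and endothelial markers to pass, with 0.27 ± 0.11 (SE). Of 14 adipocyte markers 13 had a negative difference with a median of -0.45, and only *Lep* passed. The slides did not run one way: the median of the list was -1.94 on slide 8 and -0.72 on slide 11, and 0.22, 0.36, 0.21 and 0.04 on slides 7, 9, 10 and 12. It was -0.12 without LH replicate 2, -0.20 without HH replicate 2, -0.24 without HH replicate 6 and -0.76 without LH replicate 6. In LL against HL it was -0.43. The mean level of these markers ran from 0.39 to 1.41 (median 1.00) in HH and from -0.99 to 1.13 (median 0.81) in LH, where LH replicate 2 was the low mouse. The part of attached fat in the other differences was not tested. Without LH replicate 2 the mitosis count was 25 and the neuronal count 10. Pancreatic acinar, liver and erythroid markers gave none of 17, 13 and 5 genes at an unadjusted p under 0.05.

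**Figure D4:**
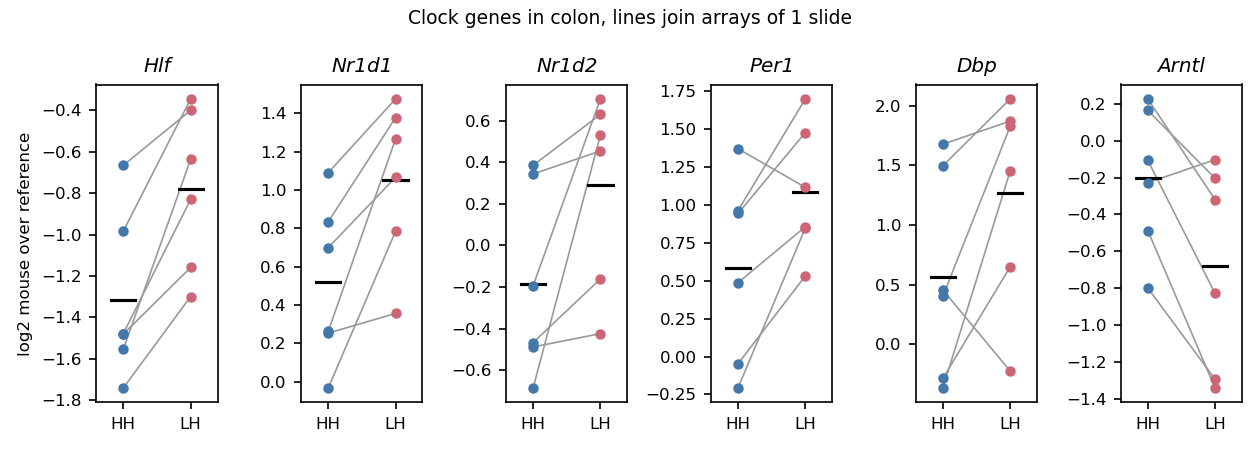
Levels of 6 clock genes (y axis, log2 mouse over reference) in the 6 HH and 6 LH mice, with lines joining arrays of 1 slide and black bars at the group means. *Hlf*, *Nr1d1* and *Nr1d2* are higher in LH on every slide, *Per1* and *Dbp* on 5 of 6, and *Arntl* is lower on 5 of 6.

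Clock genes differed together in most pairs of mice. *Arntl* drives the daytime genes *Dbp*, *Tef*, *Hlf*, *Nr1d1*, *Nr1d2* and the *Per* genes, and the *Nr1d* proteins repress *Arntl* in return, so the levels depend on the hour of sampling. Of 22 clock genes, 6 (27.3%) were higher in LH and none lower at an unadjusted p under 0.05, with a lowest adjusted p of 0.507 (limma). *Hlf* was at -1.74 to -0.67 (median -1.48) in HH and -1.30 to -0.34 (median -0.73) in LH (0.54 ± 0.21, SE). *Nr1d1* was at -0.03 to 1.09 (median 0.48) in HH and 0.36 to 1.47 (median 1.16) in LH, a difference of 0.54 ± 0.23, and *Nr1d2* had 0.47 ± 0.22, *Per1* 0.50 ± 0.24 and *Tef* 0.60 ± 0.29 (SE).

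*Dbp* lay between -0.37 and 1.68 (median 0.43) in HH and between -0.23 and 2.06 (median 1.64) in LH, and its difference of 0.71 ± 0.40 (SE) did not pass. *Arntl*, of opposite phase, was at -0.80 to 0.23 (median -0.17) in HH and -1.34 to -0.10 (median -0.57) in LH, with -0.48 ± 0.23 (SE) and an unadjusted p of 0.0521 in the limma fit. The spread within a group was about as large as the difference. Mice were fasted and fed again before sampling, the hour of death of each mouse was not given in the sources used here, and its part in these values was not tested. The count of 6 was 1 without the slide as a block or without HH replicate 1, HH replicate 4 or LH replicate 6, 2 without HH replicate 2, LH replicate 2 or LH replicate 5, and 3 without HH replicate 6 or LH replicate 3. Without HH replicates 1 and 5 together it was 1, and under some alternatives the median of the list was as low as -0.02.

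The genes closest to the nutrients themselves differed little. Of 24 selenoproteins 2 (8.33%) were lower in LH and none was higher, with a median of 0.00. *Txnrd1*, the cytosolic thioredoxin reductase, lay between -0.07 and 0.58 (median 0.11) in HH and between -0.21 and 0.17 (median 0.06) in LH (-0.21 ± 0.08, SE; adjusted p = 0.530, limma). *Gpx2*, the glutathione peroxidase of the gut epithelium, was at -0.14 to 0.80 (median 0.38) in HH and -0.25 to 0.46 (median 0.26) in LH (-0.17 ± 0.08, SE; adjusted p = 0.618, limma). *Gpx1*, whose message is known to be sensitive to selenium supply, was nearly equal, at -2.25 to -2.01 (median -2.13) and -2.30 to -2.11 (median -2.20), and the 95% interval of its difference reached from -0.18 to 0.07.

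*Selenow* and *Selenoh*, which also follow selenium supply, had differences of -0.08 ± 0.06 and -0.05 ± 0.07, and the plasma selenium carrier *Selenop* had 0.07 ± 0.11 (SE). *Selenof*, a selenoprotein of the endoplasmic reticulum, had -0.12 ± 0.06. None of 13 genes of selenocysteine synthesis and insertion passed, with *Secisbp2* at -0.12 ± 0.06, *Secisbp2l* at 0.14 ± 0.08 and *Sepsecs* at -0.07 ± 0.05 (SE).

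In the folate and methionine cycle, 3 of 36 genes (8.33%) were lower and none was higher, with a median of -0.01. *Tyms*, which makes thymidylate with a folate carbon, was at -0.08 to 0.21 (median 0.12) in HH and -0.36 to 0.07 (median -0.13) in LH, lower on every slide (-0.22 ± 0.08, SE; adjusted p = 0.486, limma). It also stands in the replication list, being an S phase gene. *Gart*, of purine synthesis, had -0.19 ± 0.07 and *Mtfmt*, which formylates the mitochondrial initiator tRNA, -0.18 ± 0.07 (SE). *Shmt1*, which loads folate with a carbon from serine, and the maintenance methyltransferase *Dnmt1* had -0.06 and -0.10 and did not pass. Without LH replicate 5 the count of 3 was 6, and without the slide as a block it was 1.

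Among p53 and DNA damage response genes, 7 of 45 (15.6%) were higher and 4 (8.89%) lower, with a median of 0.01. Those lower included the repair gene *Brca1* (-0.26 ± 0.12, SE), the histone variant *H2ax* and the p53 target *Ccng1*. Those higher included the stress genes *Gadd45b* (0.34 ± 0.13, SE), *Bbc3*, *Plk2* and *Sesn1*. The p53 target *Cdkn1a*, the inhibitor p21, had -0.18 and did not pass. The count of 7 was 1 without the slide as a block, 4 without HH replicate 3, 2 without HH replicate 4 and 3 without LH replicate 1. The count of 4 was 1 without the slide as a block or without LH replicate 3, 2 without HH replicate 4, LH replicate 1 or LH replicate 4, and 7 without LH replicate 5.

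Splicing and RNA processing genes were lower for 5 of 53 (9.43%) and higher for 2, with a median of -0.04. *Snrpa1* of the U2 particle and *Lsm6* of the U6 particle had -0.15 ± 0.06 and -0.16 ± 0.06, whereas *Hnrnpa1*, a splicing repressor, had 0.32 ± 0.10 (SE) with LH replicate 3 at 1.19. The splicing count of 5 was 1 without the slide as a block, 2 without HH replicate 1 or HH replicate 2, and 3 without HH replicate 3 or LH replicate 2. Of 41 glutathione and Nrf2 target genes 4 (9.76%) were lower, led by thioredoxin *Txn1*, at -0.88 to -0.30 (median -0.54) in HH and -1.13 to -0.42 (median -0.77) in LH and lower on every slide. That count was 2 without the slide as a block, HH replicate 4 or LH replicate 5, 7 without HH replicate 1 or LH replicate 4 and 8 without HH replicate 3. The remaining lists gave at most 1 gene in either direction, namely *Rps26* of 50 ribosomal protein genes (-0.18 ± 0.06), *Slc39a9* of 22 zinc transporter and metallothionein genes (-0.20 ± 0.09), *Herpud1* as the higher one of 27 endoplasmic reticulum genes (0.23 ± 0.06), *Elovl6* as the lower one of 32 lipid synthesis genes (-0.23 ± 0.10, SE), *Junb* of 16 immediate early genes (0.32 ± 0.12) and *Hoxd10* of 14 posterior Hox genes (0.24 ± 0.08). Of the 32 lipid synthesis genes 27 had a negative difference, with a median of -0.09 that was below 0 on 5 of 6 slides. In LL against HL their median was also -0.09, above 0 on 3 of 6 slides. None of 35 fatty acid oxidation genes passed (*Fabp2* lowest in p, -0.28 ± 0.14) and none of 28 interferon genes.

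The largest difference of a named gene was that of *Cyp1a1*, the cytochrome P450 switched on by the aryl hydrocarbon receptor, which was singled out after its values were seen. Its levels in HH replicates 1 to 6 were 0.62, -2.64, -4.53, 3.10, -3.69 and 2.14, and in LH they were all between -4.43 and -3.48. The probe was well above background on 5 HH and 2 LH arrays, so most LH values are close to the floor of the measurement. The difference was -3.25 ± 0.90 (SE; adjusted p = 0.398, limma) and rested on HH replicates 1, 4 and 6. High values also occurred in the other colon groups, at 2.55 in LL replicate 6 and -0.13 in HL replicate 6. The window of its start site, chr9:57697363-57697662 on the plus strand of GRCm38.p6, is shown with the receptor's core motif GCGTG in capitals.
Cyp1a1: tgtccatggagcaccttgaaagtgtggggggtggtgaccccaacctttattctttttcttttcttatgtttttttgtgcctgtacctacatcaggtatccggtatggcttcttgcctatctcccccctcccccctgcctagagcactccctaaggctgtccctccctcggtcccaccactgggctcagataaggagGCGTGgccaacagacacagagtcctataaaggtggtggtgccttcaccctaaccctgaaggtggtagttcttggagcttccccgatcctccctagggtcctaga
The motif occurs here once, 54 bases before the start, and it is common, in 35.2% of genes with a window.

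*Ahrr*, the repressor that the same receptor induces, ran from -0.57 to 1.23 (median 0.26) in HH and from -0.50 to 0.16 (median -0.10) in LH, with -0.55 ± 0.25 (SE; adjusted p = 0.588, limma), and its highest HH values were those of replicates 4 and 6. Other genes of a list of receptor targets, chosen after values were seen, did not follow. *Cyp1a2*, *Cyp1b1* and *Tiparp* had differences of 0.05, 0.02 and -0.06. At an unadjusted p under 0.05, 2 of the 13 measured genes were lower, *Cyp1a1* and *Ahrr* themselves. Another 1 (*Arnt*, the receptor's partner) was higher.

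**Figure D5:**
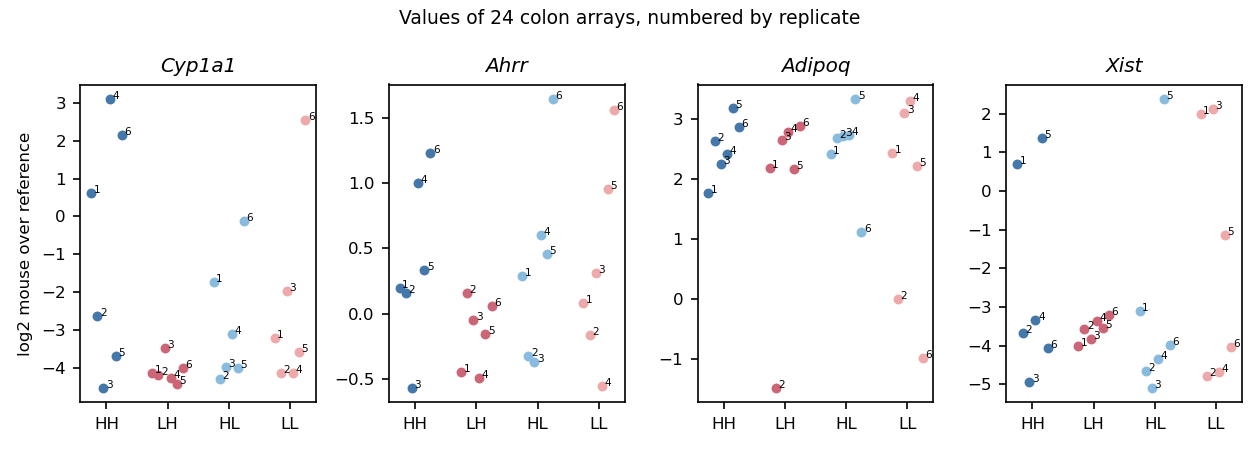
Levels of *Cyp1a1*, *Ahrr*, *Adipoq* and *Xist* (y axis, log2 mouse over reference) on all 24 colon arrays by group, each point numbered by its replicate. *Cyp1a1* is high in HH replicates 1, 4 and 6, and *Adipoq* is low in LH replicate 2. *Xist* is present in HH replicates 1 and 5, in some HL and LL mice and in no LH mouse.

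The same contrast of dam diets could be read in offspring fed diet L, as LL against HL. There the diet changed at weaning in HL, whose dams ate diet H, whereas in HH against LH it changed in LH. Dam diet and a change of diet at weaning cannot be told apart within either comparison. Some HL and LL mice also had *Xist* signal, and the median over 5 sex-linked genes, LL minus HL, was -2.20, -2.40 and 2.30 on slides 7, 9 and 11. The lowest mean level of these mostly Y-linked genes was -2.39 in HL and -2.38 in LL, against -1.05 in HH and -0.84 in LH. Some HL and LL mice thus had far less Y-linked signal than any HH or LH mouse, and the sex of these mice was not tested. Without every colon array with *Xist* signal, 3012 probes had an unadjusted p under 0.05 (limma) for HH against LH. In LL against HL 0 of 41173 probes were called by limma and 990 had an unadjusted p under 0.05. Over genes, 220 (1.19%) were higher and 164 (0.89%) lower in LL. The mitosis list had a median of 0.07 with no gene at an unadjusted p under 0.05 in either direction, and the replication list had 0.05 with 1 gene higher. The mitochondrial import, neuron and enteroendocrine lists had medians of -0.01, 0.01 and -0.02, with no gene passing.

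The difference between the 2 comparisons was tested directly as an interaction in the same fit, which equals switched (LH and HL) against unswitched (HH and LL) diets. It gave 0 called probes (limma), 1975 probes at an unadjusted p under 0.05 and a lowest adjusted p of 0.99. Over genes 992 (5.38%) had an unadjusted p under 0.05, against which 26 of the 45 mitosis genes and 18 of the 61 replication genes did, with median differences of -0.30 and -0.17. *Ube2c* was lower by 0.36 under diet H and had 0.05 under diet L. The lowest-p probes of *Lrch1*, *Cadm1* and *Ppargc1a*, higher in LH, had 0.03, -0.01 and 0.01 in LL against HL. They were picked for their low p in HH against LH, so smaller values in the other comparison show no contrast by themselves. For *Cadm1* this probe gave 0.36 in LH minus HH. Its other probes gave 0.20, which passed, and 0.10, which did not. For the mitochondrial import list 3 of 34 genes passed the interaction, for the neuronal list 3 of 26 and for the clock list 3 of 22. These counts share the HH and LH arrays with the counts above and are no separate evidence.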

How the data were processed

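Colon RNA was hybridised to 2-colour Agilent arrays with mouse RNA in Cy3 and a common reference in Cy5, without a dye swap. The reference is described differently in the sources, as pooled intestine and liver of the mice or as whole pregnant mouse and foetus. Scanner intensity values were deposited for each array per the file headers (Feature Extraction 10.10.1.1). The log2 ratios of the deposited table, which the authors normalised with limma in R 3.0.2 per the labels, served as an alternative. The sign of that table is red over green, and its array medians ran from -0.00627 to 0.00527.

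Here a local background brighter than its spot was replaced by that array's median background (32 to 217 spots per array), followed by normexp with an offset of 50, loess within each array and averaging of spots (limma 3.58.1, R 4.3.3). A model with group and slide was fitted to the 24 colon arrays, since each slide carried every group, and Benjamini-Hochberg adjusted p-values were taken over 41173 probes. The scripts were tested on simulated data. The precision is limited by 6 mice per group. All named genes were required to have an annotated accession, giving 18434 genes, with the probe of highest mean Cy3 signal for each.

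Named genes were the following. Probes well above background on at least 6 arrays, over 1.5-fold and of 1 direction on all 6 slides came first (up to 8 each way), then the 3 lowest p of each core list and the lowest of each context list, then the brightest and the lowest p of each marker list, and 5 selenoproteins that respond to selenium supply. The members and lists were chosen with earlier results of these data known. The genes with the lowest p, *Cyp1a1*, *Ahrr*, *Dbp*, *Adipoq*, other list members given as examples and the list of aryl hydrocarbon receptor targets were picked after values were seen. Promoter windows came from RefSeq. Some genes that the rule names are not reported here.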

Additional observations from a re-analysis of the deposited data

Results flagged for a closer look

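Among 188 groups of 6 mice tested, 10 held 1 mouse far from the other 5, where chance gives about 1 in 20 independent groups, or 9.4. The groups were different genes of the same mice, and some genes, *Adipoq* among them, were picked after their values were seen. The count of 10 can therefore not be set against chance. In LH replicate 2 the fat-cell genes *Adipoq* and *Fabp4* were low, at -1.47 and -1.56, with the next LH mice at 2.17 and 0.39. *Lep* was low in HH replicate 1 at 0.60, with the next HH mouse at 1.42.

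In HH replicate 4 the water channel *Aqp4* was high at -0.73 and the intestinal factor *Cdx2* at 1.79, with the next HH mice at -1.84 and 1.57. Y-linked *Eif2s3y* was low in HH replicate 5 at -1.49, the HH mouse with the highest *Xist* level, with the next HH mouse at -0.62. *Hspe1* was low in HH replicate 3 at -1.10 and high in LH replicate 5 at -0.72. *Knl1* was low in LH replicate 3 at -0.71, with the next LH mouse at -0.13, and the zinc transporter *Slc39a9* was high in HH replicate 3 at 1.56, with the next at 0.64.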

How the results depend on the processing

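In 28 refits no probe passed both thresholds in any comparison, and the lowest adjusted p of HH against LH (limma) ran from 0.0482, with array position added, to 1.00, without the slide block. The number of probes at an unadjusted p under 0.05 was 3326. Without the replicate block, that is without pairing the arrays of 1 slide, it was 1336, without the repair of bright backgrounds it was 5338, and leaving out 1 mouse at a time gave 2429 to 4103. On HH replicate 1 the standard deviation of log2 ratios was 0.530 without the repair and 0.811 with it. On HH replicate 4 it was 0.692 and 0.802. On the other HH and LH arrays it stayed at 0.786 or more without the repair. The causes of these shifts in the count were not tested. No value reversed its direction past the threshold. The numbers of the mice were given in accession order, and the slide pairs the arrays.

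Counts over lists depended more on the processing. The mitosis count ran from 8 to 34 and the replication count from 3 to 26. Without the repair the respiratory chain count was 34, the neuronal count 15 and the import count 15. With median centring in place of loess they were 18, 4 and 14, and the enteroendocrine count was 0. The medians of the mitosis, replication, import, respiratory chain, neuron and enteroendocrine lists kept their sign throughout. A fit to the 12 HH and LH arrays alone gives no value for LL against HL or for the interaction.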
